A study of Mus musculus with 4 samples.

Results

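A set of 8 noncoding RNAs known to act in the nucleus or in the developing nervous system was followed in sorted somatostatin interneurons of control mice and of mice with a conditional knockout (KO) of the DNA methyltransferase Dnmt1. Their rows were taken by gene name (Malat1, Neat1, Miat, Rn7sk, Sox2ot, Rmst, Pantr1 and Snhg11), and they are 8 of the 56883 genes in the table. All 8 passed the filter on low values (mean normalized count of at least 10) with 14323 genes in total. The cells were sorted for tdTomato from the basal telencephalon of mouse embryos at E14.5. Control cells carried Sst-Cre and the Cre-dependent red reporter tdTomato (Sst-Cre/tdTomato). Dnmt1 KO cells carried the same Cre and reporter together with a loxP-flanked Dnmt1 (Sst-Cre/tdTomato/Dnmt1 loxP2), so that Cre and tdTomato were shared by both genotypes. Total RNA of 2 libraries per genotype was sequenced, and each library pooled cells of several embryos. Because Cre is driven from the Sst locus, deletion is restricted to cells that have already switched on Sst, and the sort follows the reporter rather than the loss of Dnmt1.

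Malat1 is a long RNA polymerase II transcript of nuclear speckles, the bodies in which splicing factors are stored. Neat1 is its neighbour in the genome and the scaffold of paraspeckles, and Miat (Gomafu) forms a separate nuclear domain in neurons. Rn7sk encodes 7SK, a short RNA polymerase III transcript that holds the elongation factor P-TEFb (CDK9 with cyclin T) in an inactive particle with HEXIM1, LARP7 and MEPCE. Sox2ot surrounds the pluripotency and neural stem cell gene Sox2, Rmst is a neural transcript known to bind the SOX2 protein, and Pantr1 starts next to the POU-domain gene Pou3f3 and reads away from it. Snhg11 is a brain-enriched host transcript of small nucleolar RNAs. These roles are background, and no nuclear fraction was measured in these libraries.

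The bases by which 3 of the nuclear RNAs are recognised are shown first, because the known partners or fold of each RNA rest on them. All come from GRCm39 or its GENCODE transcripts. For Malat1 the stretch at transcript bases 7493 to 7613 is given (chr19:5845990-5846110, minus strand). Capitals mark both U-rich motifs and the A-rich motif that fold into a triple helix at the 3′ end and protect this RNA, which has no poly(A) tail of its own.
Malat1 3′ end: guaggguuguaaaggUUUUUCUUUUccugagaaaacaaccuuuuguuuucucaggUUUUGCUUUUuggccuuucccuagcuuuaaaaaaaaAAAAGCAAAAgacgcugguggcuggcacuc
For 7SK the first 110 of its 331 bases are given (chr9:78082806-78082915, minus strand). Capitals mark GAUC, the motif of the hairpin that HEXIM proteins bind, and all 3 copies in the RNA lie in this stretch.
7SK 5′ end: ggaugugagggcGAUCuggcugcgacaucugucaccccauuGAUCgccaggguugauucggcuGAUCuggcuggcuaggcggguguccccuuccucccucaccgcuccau
For Miat, bases 5510 to 5629 of its 9163-base transcript are given. Capitals mark ACUAAC, a sequence like the intron branch point that splicing factor SF1 binds.
Miat repeat: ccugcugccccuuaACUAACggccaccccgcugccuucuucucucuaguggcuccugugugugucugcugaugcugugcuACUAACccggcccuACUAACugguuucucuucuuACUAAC
Miat held 11 copies of ACUAAC (searched on the transcript strand only), 4 of them in this stretch. Of the 747 tested genes annotated lncRNA, 157 (21.0%) held at least 1 copy in their transcript, and after Miat the highest number was 6. Since the Miat transcript is long, its density of 1.20 copies per kb was matched or exceeded by others, and 14 of the 747 transcripts, Miat included, were at least as dense.

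The start regions of the neural transcripts Sox2ot and Pantr1 are shown because Dnmt1 methylates cytosine in CpG. CpG is in capitals and is counted on 1 strand, which reads the same on the other. Each window holds 300 bases of GRCm39, for Sox2ot 250 before and 50 from the start of the canonical transcript onwards.
Sox2ot, chr3:34158357-34158656, plus strand: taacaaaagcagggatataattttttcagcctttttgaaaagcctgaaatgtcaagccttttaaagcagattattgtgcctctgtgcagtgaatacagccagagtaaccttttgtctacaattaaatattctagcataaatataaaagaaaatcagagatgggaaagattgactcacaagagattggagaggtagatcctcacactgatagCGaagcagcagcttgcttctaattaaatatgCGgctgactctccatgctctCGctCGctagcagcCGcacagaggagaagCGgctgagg
Pantr1 and Pou3f3, chr1:42733877-42734176, plus strand: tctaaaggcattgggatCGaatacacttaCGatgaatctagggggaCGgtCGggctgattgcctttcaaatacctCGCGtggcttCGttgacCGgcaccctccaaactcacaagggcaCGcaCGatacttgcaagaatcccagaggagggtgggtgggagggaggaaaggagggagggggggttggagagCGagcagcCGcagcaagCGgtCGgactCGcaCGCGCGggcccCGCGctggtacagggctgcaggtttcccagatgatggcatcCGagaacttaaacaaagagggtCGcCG
The Sox2ot window held 6 CpG, while the window over the starts of Pantr1 and Pou3f3, which lie 117 bases apart on opposite strands, held 23. In windows of the same design (250 before and 50 from the start) placed on each gene's own canonical transcript, the median was 17 CpG over 14268 tested genes and 13 over the 747 lncRNA genes. Malat1 had 32 CpG, Pantr1 27, Snhg11 15, Rn7sk 8, and Neat1 and Miat 5 each. Of 3 RNAs that changed below, Malat1 lay above the median CpG count of all tested genes and Rn7sk and Sox2ot lay under it. Among the 4 that passed no test, Pantr1 lay above the median of all tested genes and Snhg11, Neat1 and Miat lay under it. Only canonical starts were counted, and other starts, such as those of the 106 annotated Sox2ot transcripts, were not examined. Methylation was not analysed here, and these counts describe the sequence alone.

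Values are normalized counts, that is, the reads of a gene divided by the size factor of its library. Recovered reads per library ranged from 6970247 to 8376711. Fold changes compare KO with control on the scale of log2(normalized count + 1), and a gene was called where the limma p, adjusted by the Benjamini-Hochberg method over all genes tested, was below 0.05. The labels name 2 samples per genotype and do not say that they are separate litters, so p-values measure only the spread between these libraries. Dnmt1 itself had normalized counts of 2238 and 2341 (control) against 2164 and 2210.3 (KO) (log2 fold change -0.066, SE 0.0543, limma adjusted p = 0.461), which was not a detectable difference. Gene-level counts include exons that the deletion leaves in place, so they could not check the labels, and control and KO stand below for the libraries so labelled. The label of Sst interneurons was met by its markers, because all 10 markers of the medial ganglionic eminence lineage were detected, with Sst at 5580.4 and 5963 (control) against 8303 and 7825 (KO). These 10 markers were also all called higher in the KO, with a median log2 fold change of 0.55. Of 10 radial glia markers 8 were called lower, and their summed normalized counts were 13257 to 13335 in the control and 8166 to 8312 in the KO. All 6 tested blood markers, all 7 vascular markers and 5 of 7 excitatory neuron markers were called lower as well (median log2 fold changes of -2.07, -1.10 and -0.78). Of 3 tested microglia markers 1 was called lower. No tested marker of the blood, vascular, excitatory neuron or microglia lists had a positive log2 fold change. DESeq2 did not call the vascular markers Cldn5 (adjusted p = 0.113) and Col1a1 (0.181) or the microglia marker Csf1r (0.100). Those calls were also lost when either control replicate was left out, and those of Flt1 and Rgs5 without control replicate 2. In each marker list at least some reads were found for every marker. In bulk libraries, fewer cells of a type and less RNA per cell cannot be told apart, and the part of these marker shifts in the results below was not tested.

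Of the 8 RNAs 4 were called. Rn7sk, Sox2ot and Malat1 were higher in the KO (Malat1 turned to lower under quantile normalization) and Rmst was lower, whereas Miat, Neat1, Pantr1 and Snhg11 passed no test. Of all genes tested 17.3% were called, 8.3% higher and 8.99% lower, and the shares called were 17.6% by edgeR and 9.2% by DESeq2. Among the 747 tested lncRNA genes 10.4% were called, but among the 109 of them with a mean of at least 100 it was 37.6%, and 7 of the 8 RNAs had such a mean. Of all 8418 tested genes with such a mean, 21.8% were called and 61.2% had genotypes that did not overlap. For 5 of the 8 the genotypes did not overlap, against 57.4% of all tested genes and 53.3% of tested lncRNA genes, but 78.9% of the 109 lncRNA genes with a mean of at least 100. The number of RNAs is too small to set its share apart from that of abundant lncRNA genes, and the results are therefore given RNA by RNA. The share called over all genes rested on the libraries used, as 1525 genes in place of 2476 were called without control replicate 2 and 1648 without control replicate 1, while the same number of 4 among these 8 RNAs was called without any one library. The order of sizes is seen in the plot of normalized counts per library.

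**Figure D1:**
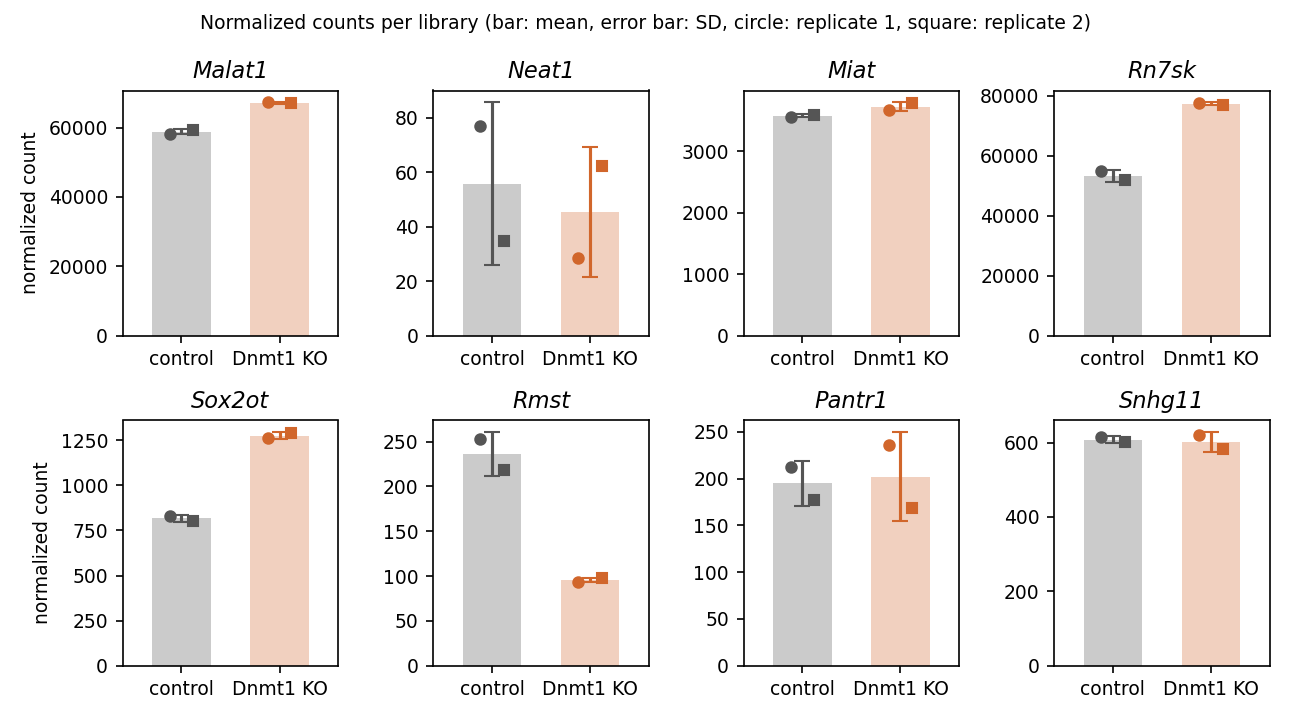
Normalized counts of the 8 RNAs, with a linear y axis from 0 in each panel. Bars are means, error bars SD of 2 libraries, circles replicate 1 and squares replicate 2. Rn7sk, Sox2ot and Malat1 were higher in both KO libraries (for Malat1 this turns to lower under quantile normalization), Rmst was lower in both, Miat differed by less than its test could call, and in Neat1, Pantr1 and Snhg11 the libraries of the genotypes overlapped.

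Levels among the 8 RNAs spanned several orders of magnitude when set per kb of the canonical transcript, averaged over the 4 libraries. Rn7sk came first with 197433 normalized counts per kb, and Malat1 second with 7987. Sox2ot followed with 1637, Miat with 398, Snhg11 with 103, Pantr1 with 95.2 and Rmst with 71.9. Neat1 was last with 2.26. Snhg11, Pantr1 and Rmst were neighbours whose libraries overlapped, as Pantr1 ranged from 80.7 to 113 per kb, Snhg11 from 99.5 to 106 and Rmst from 40.7 to 109.9. In both control libraries Rmst was above Pantr1 (109.9 and 94.8 against 102 and 85.2 per kb), and its place under Pantr1 came with the KO libraries. The place of Sox2ot depended on its length, because its canonical transcript has 639 bases while all annotated exons of its 106 transcripts cover 25442. Per kb of those exons Sox2ot fell to the fifth place with 41.1, behind Miat and Snhg11.

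Among the nuclear RNAs, the largest change was that of Rn7sk (ENSMUSG00002076161.1, annotated misc_RNA, chr9:78082585-78082915, minus strand), the RNA that keeps P-TEFb inactive. Its normalized counts were 54759 and 51888 (control) against 77718 and 77038 (KO). Both KO libraries lay above both control libraries, and the gap exceeded the spread within either genotype. The mean was 53323 ± 2030.0 in the control and 77378 ± 481 in the KO (SD, n = 2 each), a 1.45-fold level (log2 fold change 0.54, SE 0.0317, limma adjusted p = 3.69e-08, 95% interval 0.47 to 0.61). In shares of all recovered reads, Rn7sk took 0.698% to 0.731% in the control and 1.01% to 1.02% in the KO. The size of the change moved with the scaling, from 0.17 under quantile normalization to 0.79 after removing trends of transcript length and GC content, and the call held in both. Copies of 7SK are scattered in the genome, with 292 other matches by BLAST. Of these, 11 had at least 75 bases at 90% identity or more, none reached 300 bases at that identity, and the best match over 300 bases had 89.2%. Quantification was done with Salmon. How it assigned reads shared with such copies was not examined, so the Rn7sk value may hold some of them.

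The proteins of the 7SK particle and of P-TEFb moved in both directions. Of 10 tested, 3 were called higher, 1 was called lower and 6 were not called, and the median log2 fold change was 0.094 against -0.0033 over all genes. Larp7, whose protein binds the 3′ end of 7SK and stabilises it, had normalized counts of 313 and 332 (control) against 226 and 244 (KO). Thus Larp7 was lower in both KO libraries (log2 fold change -0.46, SE 0.112, limma adjusted p = 0.0101) while the RNA it binds was higher, and the log2 ratio of Rn7sk to Larp7 was 7.45 and 7.29 in the control and 8.43 and 8.30 in the KO. The Larp7 call was lost without control replicate 2 and in DESeq2 (adjusted p = 0.0798). The cyclin T genes Ccnt1 (log2 fold change 0.30, adjusted p = 0.0327 by limma) and Ccnt2 (log2 fold change 0.28, adjusted p = 0.0291 by limma) and the super elongation complex gene Aff4 (log2 fold change 0.22, adjusted p = 0.00816 by limma) were called higher. DESeq2 called Aff4 (adjusted p = 0.0123) but neither Ccnt1 (0.145) nor Ccnt2 (0.147). Without control replicate 1 or KO replicate 2 neither cyclin T gene was called, Ccnt2 was also lost without control replicate 2, and Aff4 was lost without KO replicate 1. Removing trends of length and GC content ended the calls of Aff4 and Ccnt2, and quantile normalization those of Ccnt1 and Ccnt2. Hexim1, which inhibits P-TEFb, had a log2 fold change of -0.000370 (SE 0.108, limma adjusted p = 0.999). The kinase gene Cdk9 (log2 fold change 0.045, adjusted p = 0.852 by limma) and the capping enzyme gene Mepce (log2 fold change 0.13, adjusted p = 0.607 by limma) were not called either.

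Of other short RNAs made by RNA polymerase III, the abundant 7SL, RNase P and RNase MRP RNAs had rows that rose. The 9 listed RNAs, which include minor spliceosome RNAs, have 11 tested rows, since Rmrp and Terc are each listed under 2 identifiers, and 4 rows were called higher, 1 lower and 6 not, with a median log2 fold change of 0.15. The 7SL RNA of the signal recognition particle, which targets secreted proteins, is represented by Rn7s1 and Rn7s2. They are near-identical copies between which shared reads can be split, and how Salmon split them was not examined. Rn7s1 had normalized counts of 91231 and 92064 (control) against 116893 and 111652 (KO) (log2 fold change 0.32, SE 0.0295, limma adjusted p = 3.26e-06). Rn7s2 showed 87859.5 and 86316 (control) against 101204 and 91918 (KO) (log2 fold change 0.15, SE 0.0374, limma adjusted p = 0.0128), with less distance between the genotypes. Under quantile normalization both differences became 0, and the Rn7s2 call was also lost without control replicate 2 or KO replicate 1. Rpph1, the RNA of RNase P, which trims transfer RNA precursors, had 20961 and 21099.7 (control) against 27451 and 24933 (KO) (log2 fold change 0.31, SE 0.0412, limma adjusted p = 8.51e-05). The 2 rows of Rmrp, the RNA of RNase MRP, cover the same stretch of chromosome 4 on the same strand, so reads can be split between them. Of these, the row with more counts was higher (log2 fold change 0.60, adjusted p = 2.24e-06 by limma) and the other lower (log2 fold change -0.37, adjusted p = 0.000233 by limma), and the lower call was lost after removing trends of length and GC content. The small Y RNAs Rny1 (log2 fold change -0.36) and Rny3 (-0.13) and the minor spliceosome RNAs Rnu11 (0.17) and Rnu12 (-0.00301) were not called. The genes annotated misc_RNA, which include 7SK and 7SL, took 3.20% to 3.23% of reads in the control and 3.75% to 3.96% in the KO. Genes annotated as rRNA, with mitochondrial rRNA counted in, took 11.5% to 12.3% over all 4 libraries. The part of library composition in these changes was not tested.

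Malat1 (ENSMUSG00000092341.6, chr19:5845717-5853602, minus strand) ranked seventh of all genes by normalized count, a rank that takes no account of length. Its normalized counts were 58288 and 59429 (control) against 67266 and 66963 (KO). The KO libraries lay above the control libraries and close to each other. The mean was 58858 ± 807 in the control and 67115 ± 215 in the KO (SD, n = 2 each), a 1.14-fold level (log2 fold change 0.19, SE 0.0288, limma adjusted p = 0.000309, 95% interval 0.13 to 0.25). As a share of recovered reads Malat1 took 0.778% to 0.800% in the control and 0.879% to 0.881% in the KO. The change was small beside those of other genes, since 53.9% of all tested genes had a larger absolute log2 fold change. Its direction also rested on the scaling, because quantile normalization gave -0.17. In both control libraries Malat1 ranked sixth and Rn7sk seventh among all genes, and in both KO libraries they had changed places. Quantile normalization gives a rank the same value in every library, so this exchange set equal and opposite changes for the pair. The log2 ratio of Rn7sk to Malat1, which needs no scaling between libraries, was -0.090 and -0.20 in the control and 0.21 and 0.20 in the KO, so that its sign differed between the genotypes.

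Neat1 (ENSMUSG00000092274.5, chr19:5874736-5897132, minus strand), transcribed from the same strand 21134 bases away from Malat1, had the lowest counts of the 8 RNAs and a wide spread between libraries. Its normalized counts were 77.0 and 34.7 (control) against 28.6 and 62.3 (KO), from 86, 34, 29 and 57 reads. The genotypes overlapped, with a high and a low library in each. The spread within each genotype exceeded counting error. In the control, the exact 95% Poisson interval of replicate 1 began at 61.6 normalized counts and that of replicate 2 ended at 48.5, and in the KO that of replicate 1 ended at 41.1 and that of replicate 2 began at 47.2 (counting error only). Means were 55.8 ± 29.9 in the control and 45.4 ± 23.8 in the KO (SD, n = 2 each), and the log2 fold change was -0.29 (95% interval -1.10 to 0.53, limma adjusted p = 0.670). The interval spans both directions, and the sign turned positive without control replicate 1 (0.28) or without KO replicate 1 (0.26).

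Miat (ENSMUSG00000097767.10, chr5:112361094-112377261, minus strand), whose ACUAAC repeats are given above, had normalized counts of 3557 and 3588 (control) against 3670.3 and 3773 (KO). Both KO libraries were slightly above both control libraries. With means of 3573 ± 22.2 in the control and 3721 ± 72.4 in the KO (SD, n = 2 each), the log2 fold change was 0.059 (95% interval -0.042 to 0.16, limma adjusted p = 0.445). The interval leaves room for a change of at most 0.16 upwards and 0.042 downwards on the log2 scale, and under quantile normalization the value was -0.013. The genes of a pair of splicing factors known to bind Miat were tested and neither was called. Their log2 fold changes were -0.10 for Sf1 and -0.065 for Celf3 (limma adjusted p = 0.224 and 0.488). Qk, a further binder, was not analysed here.

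The protein genes of the nuclear bodies had called changes of at most 0.27 on the log2 scale in size. Of 15 nuclear speckle genes, 1 was higher, 1 was lower and 13 were not called, with a median log2 fold change of -0.078. Srsf2, an SR splicing factor, was lower (log2 fold change -0.27, adjusted p = 0.00745 by limma), and Srrm2, a core scaffold of speckles, was higher (log2 fold change 0.13, adjusted p = 0.0279 by limma). The Srsf2 call was lost without control replicate 1 and the Srrm2 call without any one of the 4 libraries, under quantile normalization and in DESeq2 (adjusted p = 0.0515). Srsf1, known to bind Malat1, was not called (log2 fold change -0.046, adjusted p = 0.653 by limma). Of 15 paraspeckle genes, 4 were lower, none higher and 11 not called, with a median of -0.094, and 4 of the 15 had a positive log2 fold change. Those called were Ewsr1 (log2 fold change -0.20, adjusted p = 0.0179), Tardbp (log2 fold change -0.19, adjusted p = 0.0299), Hnrnpk (log2 fold change -0.17, adjusted p = 0.0168) and Hnrnph1 (log2 fold change -0.15, adjusted p = 0.0440), all RNA-binding proteins, by limma. All 4 calls were lost without control replicate 2 and again without KO replicate 2, and DESeq2 called Ewsr1 (0.0447) and Hnrnpk (0.0306) but neither Tardbp (0.106) nor Hnrnph1 (0.107). The calls of Ewsr1 and Hnrnpk were also lost after removing trends of length and GC content, and edgeR did not call Hnrnph1 (0.0516). Sfpq (log2 fold change -0.094, adjusted p = 0.145) and Nono (log2 fold change -0.11, adjusted p = 0.130), the core proteins that assemble on Neat1, were not called by limma. Over all partner lists together 19 tested rows were higher and 11 lower, and without control replicate 2 the number lower was 5.

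**Figure D2:**
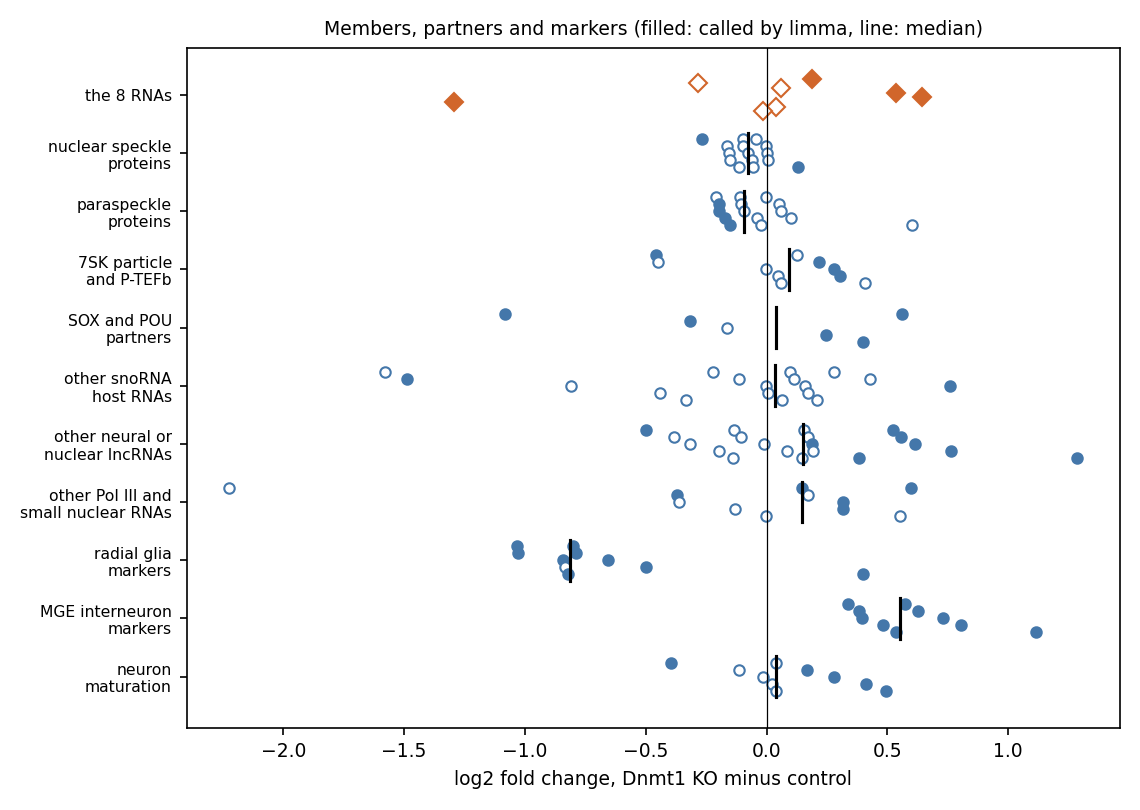
log2 fold change (x axis, KO minus control) of the 8 RNAs in the top row and of the genes of each partner or marker list below. Filled symbols were called by limma and black lines are medians. Nuclear speckle and paraspeckle proteins gather near 0, whereas 8 of 10 radial glia markers and 10 of 10 interneuron markers were called, in opposite directions.

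Of the neural transcripts, Sox2ot (ENSMUSG00000105265.7, chr3:34158419-34789489, plus strand) rose and Rmst fell. Sox2ot had normalized counts of 829 and 804 (control) against 1263 and 1289 (KO). Both KO libraries lay well above both control libraries, and the libraries within a genotype differed little. Its mean was 817 ± 17.1 in the control and 1276 ± 18.9 in the KO (SD, n = 2 each), a 1.56-fold level (log2 fold change 0.64, SE 0.0671, limma adjusted p = 1.01e-05, 95% interval 0.50 to 0.79). Leaving out any one library gave 0.62 to 0.66, and 14.9% of tested genes had a larger absolute change. Sox2, which encodes the neural stem cell factor of that name, lies within Sox2ot on the same strand (chr3:34704554-34706610) and shares no annotated exonic base with it. Its normalized counts were 1085 and 1055 (control) against 1429 and 1389.8 (KO). Sox2 was thus higher in both KO libraries too (log2 fold change 0.40, SE 0.0636, limma adjusted p = 0.000480), by less than Sox2ot. The log2 ratio of Sox2ot to Sox2 was -0.39 in each control library and -0.18 and -0.11 in the KO libraries. A further transcript inside Sox2ot without an exonic base in common, Gm42692 (annotated TEC, to be experimentally tested), had 47.4 and 60.2 (control) against 98.6 and 86.3 (KO) (log2 fold change 0.78, SE 0.218, limma adjusted p = 0.0225). This call was lost in DESeq2 (adjusted p = 0.142) and without control replicate 1 or KO replicate 1. Reads from unspliced Sox2ot cannot be told apart from reads of genes that lie in its introns on the same strand. The nearest tested genes outside the locus were Dnajc19 (log2 fold change -0.26, adjusted p = 0.349) and Atp11b (log2 fold change 0.31, adjusted p = 0.0708), and limma called neither. The 10 interneuron markers, whose summed normalized counts were 21530 to 21597 in the control and 32169 to 32559 in the KO, moved in the same direction as Sox2ot, and their part in its value was not tested.

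Rmst (ENSMUSG00000112117.4, chr10:91906899-92001132, minus strand) had the largest change of the 8 RNAs. Its normalized counts were 253 and 218 (control) against 93.7 and 97.2 (KO). Both KO libraries lay far under the lower control library and were nearly equal. The mean was 236 ± 24.6 in the control and 95.5 ± 2.50 in the KO (SD, n = 2 each), a 0.408-fold level (log2 fold change -1.29, SE 0.148, limma adjusted p = 2.41e-05, 95% interval -1.61 to -0.98). Only 2.92% of all tested genes had a larger absolute log2 fold change, and leaving out any one library gave -1.40 to -1.19. The log2 ratio of Rmst to Sox2, whose protein it is known to bind, was -2.10 and -2.27 in the control and -3.93 and -3.84 in the KO. Radial glia markers moved with Rmst in the same direction, among them Nes (log2 fold change -1.03, adjusted p = 1.82e-08), Vim (log2 fold change -1.03, adjusted p = 1.34e-08) and Sox9 (log2 fold change -0.82, adjusted p = 1.95e-05) by limma, whereas Sox2 is on that list and was higher. Whether a lower share of such cells plays a part in the value of Rmst was not tested. Of the tested genes nearest to Rmst, Tmpo, which encodes a lamina-associated protein of the nucleus, was lower (log2 fold change -0.29, adjusted p = 0.00895 by limma) and lies 889722 bases away. The Tmpo call was lost without control replicate 1 or KO replicate 1. Nedd1, on the other side at 519240 bases, was not called (log2 fold change -0.40, adjusted p = 0.202 by limma). The microRNA genes Mir135a-2 and Mir1251 inside Rmst had no read in any library.

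Pantr1 (ENSMUSG00000060424.16, chr1:42629754-42734584, minus strand) had normalized counts of 212 and 178 (control) against 236 and 168 (KO). The genotypes overlapped, since the highest and the lowest library were both KO. Means were 195 ± 24.4 in the control and 202 ± 47.7 in the KO (SD, n = 2 each), with a log2 fold change of 0.037 (95% interval -0.31 to 0.38, limma adjusted p = 0.911), and the sign turned negative without control replicate 2 (-0.090) or KO replicate 1 (-0.20). Pou3f3 (Brn1), the POU-domain gene that starts 117 bases from the canonical Pantr1 start, had 1774 and 1762 (control) against 2090.1 and 2104 (KO). Pou3f3 was higher in both KO libraries (log2 fold change 0.25, SE 0.0549, limma adjusted p = 0.00581). The log2 ratio of Pantr1 to Pou3f3 overlapped between the genotypes (-3.06 and -3.31 in the control, -3.15 and -3.64 in the KO), so no different response of the pair was detectable beyond the spread between libraries. Annotated exons of Pantr1 and Pou3f3 share 304 bases on opposite strands, and whether reads were counted by strand is not given in the sources used here. Pantr2, on the same strand as Pantr1 and sharing 420 exonic bases with it, had 15.2 and 21.4 (control) against 12.8 and 9.83 (KO) (log2 fold change -0.64, SE 0.456, limma adjusted p = 0.381). The nearest tested genes outside were Mrps9, which was not called (log2 fold change 0.074, adjusted p = 0.790 by limma), and Gm29260 at 650996 bases, which was lower (log2 fold change -1.49, adjusted p = 0.0385 by limma) at low counts. The Gm29260 call was lost in DESeq2 (adjusted p = 0.155), under quantile normalization and without control replicate 1 or KO replicate 2.

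Snhg11 (ENSMUSG00000044349.17, chr2:158217558-158228071, plus strand) had normalized counts of 615 and 601 (control) against 620.4 and 583 (KO). The genotypes overlapped and all 4 libraries lay close together. Means were 608 ± 9.52 in the control and 602 ± 26.1 in the KO (SD, n = 2 each), with a log2 fold change of -0.0151 (95% interval -0.19 to 0.16, limma adjusted p = 0.930), and the sign turned positive without control replicate 1 (0.00083) or KO replicate 2 (0.029). The interval leaves room for a change of up to 0.19 downwards or 0.16 upwards. For other host RNAs of small nucleolar RNAs, 1 of 18 tested rows was higher, 1 lower and 16 not called, with a median log2 fold change of 0.0345. Snhg14, the long host transcript of the imprinted Prader-Willi and Angelman region, was higher (log2 fold change 0.76, adjusted p = 0.000824 by limma), and of the 2 rows of Snhg4 the one annotated protein_coding, which reaches into the locus of Matr3 on the same strand, was lower (log2 fold change -1.49, adjusted p = 0.0124 by limma). DESeq2 called neither (adjusted p = 0.101 and 0.400), and the Snhg4 call was also lost without control replicate 1. The Snhg4 row annotated lncRNA was not called (log2 fold change 0.16, adjusted p = 0.812 by limma). The neighbours of Snhg11, Snhg17 (log2 fold change -0.22, adjusted p = 0.436) and Ralgapb (log2 fold change 0.046, adjusted p = 0.745), were not called by limma.

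The list of 5 SOX and POU genes and Hnrnpa2b1 linked to these transcripts was called in both directions, with 3 of 6 higher, 2 lower and 1 not called. Sox1 (log2 fold change 0.56, adjusted p = 1.52e-05 by limma), Sox2 and Pou3f3 were higher. Sox3, the third gene of the SoxB1 group, was lower (log2 fold change -1.08, adjusted p = 0.00172 by limma), as was Hnrnpa2b1, an RNA-binding protein known to interact with Rmst (log2 fold change -0.32, adjusted p = 6.24e-05 by limma). Pou3f2 was not called (log2 fold change -0.16, adjusted p = 0.157 by limma).

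Among 20 tested other neural or nuclear lncRNA genes, 7 were higher, 1 was lower and 12 were not called, with a median log2 fold change of 0.15 where the median over all 747 tested lncRNA genes was 0.12. Xist, the RNA that coats the inactive X chromosome, had normalized counts of 1402 and 1359.8 (control) against 3428 and 3311 (KO) (log2 fold change 1.29, SE 0.0546, limma adjusted p = 1.83e-09). Both KO libraries were more than 2-fold above the control libraries, and the sexes of the pooled embryos are not given in the sources used here. From Xist alone, the share of female cells and the level per cell cannot be told apart. Genes of the Y chromosome were not examined for this, and the share of female cells was not tested. Dlx1as and Dlx6os1, transcripts of the Dlx gene pairs that mark GABAergic neurons, were higher too (log2 fold change 0.77, adjusted p = 5.26e-08 and log2 fold change 0.61, adjusted p = 6.05e-06 by limma), beside the interneuron markers described above. Kcnq1ot1, the imprinted antisense transcript, had 862 and 786 (control) against 1399.7 and 1045 (KO) (log2 fold change 0.55, SE 0.105, limma adjusted p = 0.00183). DESeq2 on recovered reads did not call it (adjusted p = 0.0669). The paper, which ran another version of DESeq2, counted it among the genes increased in the KO. Mir99ahg was the 1 gene called lower (log2 fold change -0.50, adjusted p = 0.0207 by limma), a call lost in DESeq2 (adjusted p = 0.125) and without control replicate 2 or KO replicate 1. The plot of fold change against level shows where the 8 RNAs lie among these genes.

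**Figure D3:**
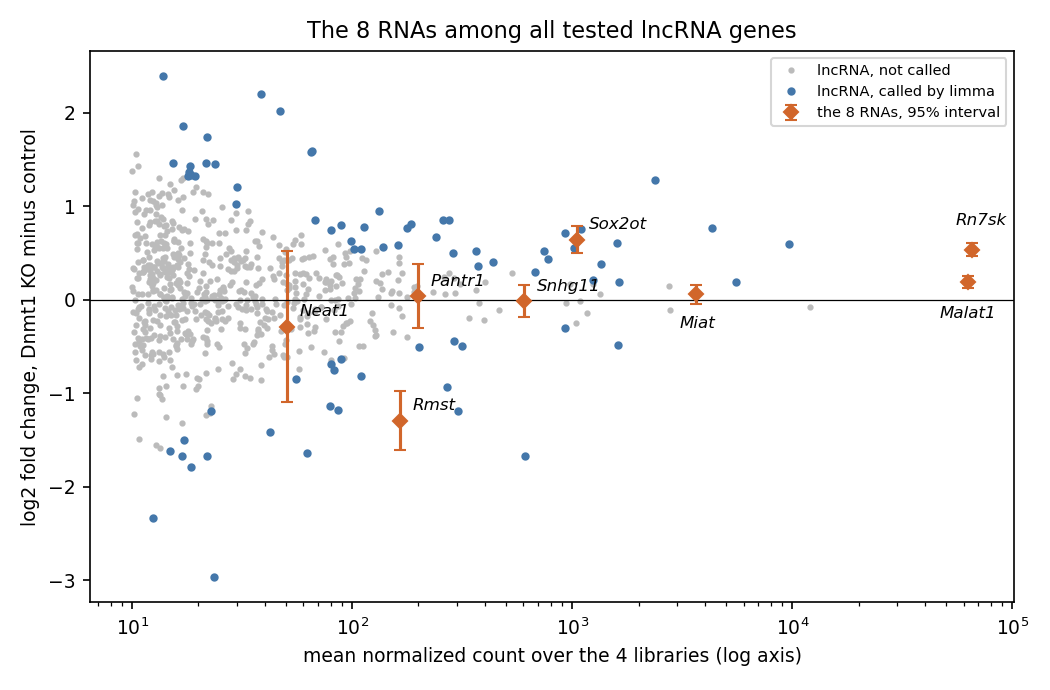
log2 fold change (y axis, KO minus control) against the mean normalized count over 4 libraries (log x axis) of the 747 tested genes annotated lncRNA, with the 8 RNAs as diamonds with 95% intervals (Rn7sk is annotated misc_RNA). Rn7sk and Malat1 stand at the far right, above 0 (Malat1 turns to -0.17 under quantile normalization), Rmst lies at -1.29, and the interval of Neat1, at the lowest mean, is the widest of the 8.

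By pattern over the 4 libraries, the nearest of the lncRNA genes with a mean of at least 100 (108 candidates, 109 for Rn7sk) was found for 7 of the RNAs, leaving out Neat1 for its low mean. Distance is Euclidean between log2 values centred on their mean, so it compares shape and not level. The RNA nearest to Rmst was Gm20634, at a distance of 0.397, with normalized counts of 960.2 and 899 (control) against 275 and 307 (KO). The pair fell together, with a log2 fold change of -1.67 for Gm20634 (limma adjusted p = 1.82e-08). Gm56829 was nearest to Sox2ot (0.0823), with a log2 fold change of 0.59 (limma adjusted p = 0.00940, lost in DESeq2 and without control replicate 2). 0610038B21Rik was nearest to Rn7sk (0.0724), and its call was lost without any one library and in DESeq2. For the other 4, the nearest was Snhg12 to Malat1, Gm12061 to Miat, Snhg5 to Pantr1 and Mir124-2hg to Snhg11, none of them called. With 4 libraries many genes share a pattern by the genotype difference alone, and these neighbours are given as a description.

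The size of each change was computed again under other settings. For Sox2ot the log2 fold change lay between 0.59 and 0.87 and for Rmst between -1.40 and -1.19, whereas the wider range of Rn7sk, from 0.17 to 0.79, and that of Malat1, from -0.17 to 0.20, had their low ends under quantile normalization. The plot of settings gives all 8.

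**Figure D4:**
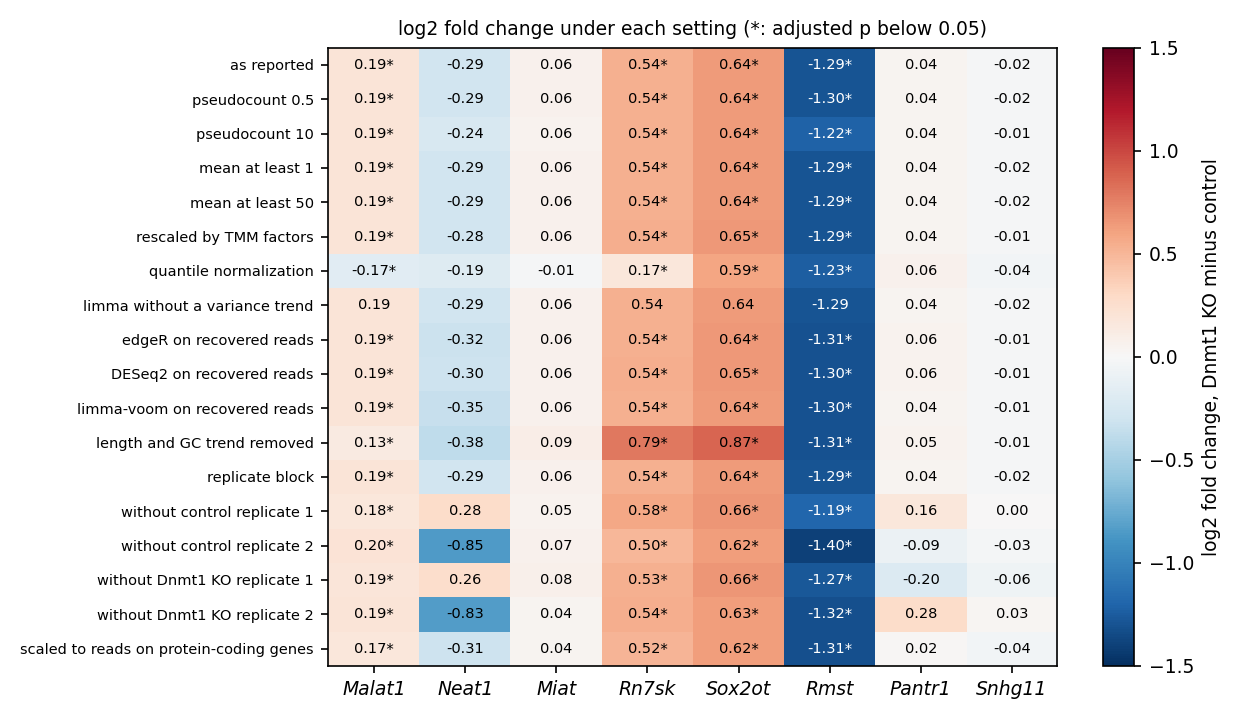
log2 fold change of the 8 RNAs (columns) under each setting (rows), in colour and as a number, with an asterisk where the adjusted p was below 0.05. Sox2ot, Rmst and Rn7sk keep their sign in every row, Malat1 turns to -0.17 under quantile normalization, and no RNA has an asterisk in the row without a variance trend.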

How the data were processed

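Total RNA of tdTomato-positive cells from the basal telencephalon (E14.5, 50000 cells pooled per genotype per the labels) was sequenced in 2 control and 2 Dnmt1 KO libraries. The submitters' processing notes name bcl2fastq, Trim Galore, STAR, Salmon, R 4.3.2, DESeq2 1.32.0 and GRCm39. The deposited signal, made by the authors, is a DESeq2-normalized count per gene and library. Whole counts could be recovered from it, since each of the 89965 values above 0 (100%) came out as a whole number of counts within 0.0001. These are called reads here, and whether they are rounded estimates from Salmon was not examined. Log2(normalized count + 1) of the 14323 genes with a mean of at least 10 was fitted with limma 3.58.1 in R 4.3.3 (genotype as the only term, variance trend, two-sided, Benjamini-Hochberg below 0.05). The script was tested on simulated data. edgeR 4.0.16 and DESeq2 1.42.0 were run on recovered reads as alternatives. Other pseudocounts, filters, scalings, removal of length and GC trends (splines of 5 degrees of freedom) and leaving out each library were also tried. Scaling to reads on protein-coding genes was added after seeing the data.

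The 8 RNAs, the gene lists and the rule for named genes (all 8, up to 4 called genes a list by size, known binders, nearest tested neighbours and nearest lncRNA profiles) were chosen with earlier results of these data known. Sequences and positions come from GRCm39 with GENCODE annotation, which matched 56322 of 56883 identifiers, and copies of 7SK were searched with blastn 2.17.0 (E of at most 1e-05). The start region of 1 of the 8 genes is not reported here.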

Additional observations from a re-analysis of the deposited data

How the results depend on the processing

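The calls of Rn7sk, Sox2ot and Rmst held in 16 of 17 alternatives and that of Malat1 in 15. Without a trend of the variance over mean expression, limma called none of the 8 (0), 0 of all genes, and 0 genes higher and 0 lower in the partner lists. In that fit 3339 genes had an unadjusted p below 0.05, among them 3 of the 8 RNAs (Rmst, Sox2ot and Rn7sk). Malat1 was not among them (unadjusted p = 0.0973 by limma without the trend). The smallest adjusted p in that fit was 0.0592, and edgeR called 2528 genes. DESeq2 called 1317 of all genes and 6 partner genes lower. Leaving out each library gave 4 to 4 of the 8 RNAs, 1525 to 2205 of all genes, and 16 to 17 partner rows higher and 5 to 10 lower. Signs turned under quantile normalization for Malat1 (-0.17, limma adjusted p = 6.97e-06, called lower, from the exchange of ranks with Rn7sk) and Miat (-0.013, the cause was not tested). Without 1 library they turned for Neat1 (0.28 and 0.26, range -0.85 to 0.28), Pantr1 (-0.090 and -0.20, range -0.20 to 0.28) and Snhg11 (0.00083 and 0.029, range -0.059 to 0.029), which were not called in any fit. Other scalings moved the median of all genes by less than 0.1. Replicate numbers are shared between the genotypes but the labels do not pair the libraries, and the deviations of same-numbered libraries correlated at -0.0847. With the replicate number as a block, 4 of the 8 RNAs and 2957 genes were called, and with 2 pairs the check is weak. Neat1 had 29 to 86 reads, with a spread between libraries beyond counting error.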

Other observations

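As a class, tested lncRNA genes had a median log2 fold change of 0.12, where the median of all tested genes was -0.0033, and 446 of 747 had a positive value. Of these genes 52 were called higher by limma and 26 lower. Their median absolute log2 fold change was 0.36, and that of all tested genes was 0.21. The 2 sets differ in level, since 109 of the 747 lncRNA genes had a mean of at least 100, against 8418 of all 14323 tested genes. The part of level in this difference was not tested. All lncRNA genes together took 2.13% to 2.15% of recovered reads in the control and 2.36% to 2.41% in the KO. Mitochondrial genes took 6.84% to 7.03% in the control and 5.87% to 6.25% in the KO. That share includes mitochondrial rRNA, which is also part of the rRNA share given above.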
